A study of Mus musculus with 4 samples.

Results

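The EGR, NR4A and IER genes are immediate early genes, transcribed within minutes of a stimulus without new protein synthesis. The 9 genes described here were taken by name from a table of 55487 mouse genes: Egr1, Egr2 and Egr3, Nr4a1, Nr4a2 and Nr4a3, and Ier2, Ier3 and Ier5. They were measured by RNA sequencing in group 2 innate lymphoid cells (ILC2s), tissue-resident lymphocytes without antigen receptors that secrete type 2 cytokines. The cells had been sorted from the mouse gut, labelled as colon, and grown in medium with IL-33, IL-7, IL-25 and IL-2. There were 2 libraries of cells exposed to FK866 for 16 h and 2 control libraries without it. FK866 is a small-molecule inhibitor of NAMPT, the enzyme that salvages nicotinamide into NAD+. All 4 libraries shared the same cytokines, and the labels give no strain, age or sex, no dose of FK866 and no time point before 16 h. They do not say whether the replicates came from separate animals or cultures, so the p-values cover the spread among 4 libraries and that spread may be technical.

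The EGR proteins are zinc finger transcription factors induced through ERK signalling, serum response factor and its ETS partners, and in T cells EGR2 and EGR3 are known to restrain activation. The NR4A proteins are orphan nuclear receptors whose activity follows mainly from their abundance, and they are induced by antigen receptor, calcium and cAMP signals. The IER genes share a name rather than a single function: IER2 and IER5 belong to one family of nuclear proteins and IER3 is a small stress-regulated survival protein. Transcripts of many such genes are short-lived, and these cells were sampled at a single time after hours of culture.

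Library totals ranged from 27617750 to 37841233 counts, and same-group libraries differed beyond sampling noise (chi-square of 19.0 per degree of freedom for FK866 and 35.8 for control). Genes with 10 or more counts numbered 22461 in FK866 replicate 2 and 17152 to 18667 elsewhere. The 12 ILC2 markers were all detected and summed to 5187 and 4538 CPM (counts scaled to the TMM-adjusted library size) in the FK866 libraries and 4980 and 4974 CPM in the controls. Within that list Rora was called higher (log2 1.70) and Il13 (-1.49) and Icos (-0.84) lower. Called genes occurred in 4 of the 9 marker lists. Of 7 mast cell and basophil markers, 4 could be tested and 1, Kit, was called higher; the list summed to 1250 and 1083 CPM with FK866 and to 306.8 and 232.7 CPM in controls, almost all of it Kit, while Cpa3 had between 0 and 18 counts. Of 9 myeloid markers, 6 could be tested and 1, Cd68, was called higher; the list summed to 14.6 and 13.3 CPM with FK866 and to 5.26 and 6.72 CPM in controls. Of 5 ILC3 markers, 1, Il23r, was called higher, with 6.08 and 3.62 CPM with FK866 and 1.05 and 1.29 CPM in controls; the list summed to 230.2 and 87.4 CPM with FK866 and to 273.7 and 159.8 CPM in controls. Of 11 mitochondrial transcripts, 1, mt-Co1, was called higher (log2 0.62), and the list summed to 5535 and 6261 CPM with FK866 and to 4501 and 7348 CPM in controls. The part of these markers in the results below was not tested.

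All 9 genes passed the filter on low counts, and 3 of them rose with FK866: Egr1, Nr4a1 and Nr4a2 (edgeR's quasi-likelihood test, adjusted by Benjamini-Hochberg over 19194 genes, threshold 0.05). Of all genes tested, 13.2% were called in either direction and 5.31% were called higher. With a stricter filter (mean log2 CPM of at least 2), 34.6% of 9697 genes were called, 1747 of them higher. Egr1 and Nr4a1 rose in that fit too, and Ier2, Ier3 and Ier5 were tested in it but not called. Egr2, Egr3, Nr4a2 and Nr4a3 did not pass that filter and were not tested. No member was called lower by edgeR, DESeq2 or limma-voom with treatment as the only term. At an unadjusted edgeR p under 0.05, 1 member, Ier2, was lower, and 5370 of the 19194 genes tested passed in either direction. In 5 of the 9 genes both FK866 values lay above both control values and in 2 both lay below, as they did in 28.4% and 29.3% of all genes tested. The median log2 fold change of the 9 genes was 0.64, against 0.03 over all genes tested. In bulk RNA, fewer cells expressing a gene and less RNA per cell cannot be told apart, so each value is an average over the cells of a library.

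**Figure D1:**
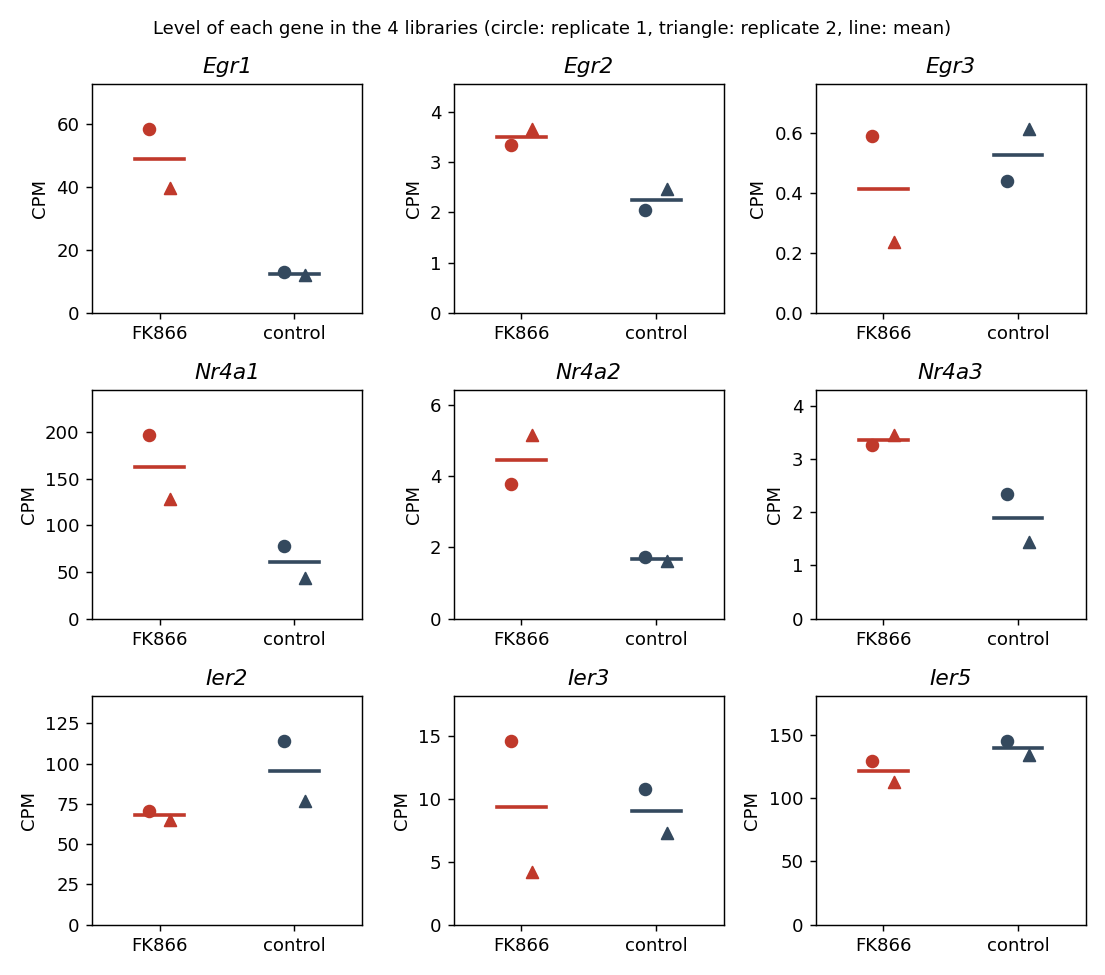
Level of each gene in CPM (vertical axes, each from 0) in the FK866 and control libraries, with circles for replicate 1, triangles for replicate 2 and lines for the mean of 2 libraries. Both FK866 points lie above both control points for Egr1, Egr2 and the 3 NR4A genes, the groups overlap for Egr3 and Ier3, and both FK866 points lie below the controls for Ier2 and Ier5.

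Egr1 showed the largest change of the 9 genes. Egr1 (ENSMUSG00000038418, GRCm38 chromosome 18, 34859823 to 34864984, plus strand), the founding EGR factor, had 58.2 and 39.8 CPM in the FK866 libraries, against 12.8 and 12.0 CPM in the controls. Both FK866 libraries stood well above both controls, and the 2 controls were nearly equal. The means were 49.0 ± 13.1 CPM with FK866 and 12.4 ± 0.61 CPM in controls (SD, n = 2 each), a log2 fold change of 1.98 ± 0.22 (SE) with an edgeR adjusted p of 0.00182. That is 3.95-fold, with a 95% interval of 2.79 to 5.59. The call held in all 13 alternatives run, with a log2 fold change between 1.58 and 2.25.

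Egr2 and Egr3 were far less abundant. Egr2 (ENSMUSG00000037868, chromosome 10, 67535475 to 67542188, plus strand), which in T cells takes part in anergy and tolerance, had 3.34 and 3.65 CPM with FK866 and 2.04 and 2.45 CPM in controls, from 74 to 124 counts a library. The groups did not overlap, and neither did those of 57.7% of all genes tested. The log2 fold change of 0.64 ± 0.37 (SE) did not pass (edgeR adjusted p = 0.312). Its 95% interval of 0.86-fold to 2.80-fold includes both no change and a clear rise. Egr3 (ENSMUSG00000033730, chromosome 14, 70077203 to 70082614, plus strand), which overlaps Egr2 in function in lymphocytes, had 16 and 8 counts with FK866 and 16 and 20 counts in controls. With so few counts a change in Egr3 was not detectable at this depth (log2 fold change -0.35 ± 0.93, SE, edgeR adjusted p = 0.863), and its sign turned to 0.20 without FK866 replicate 2. Its 95% interval ran from 0.18-fold to 3.38-fold.

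Egr1 therefore supplied most EGR reads in every library. It held 93.7% and 91.1% of the summed CPM of the 3 EGR genes with FK866, and 83.8% and 79.6% in controls. The sum was 62.2 and 43.6 CPM with FK866 against 15.3 and 15.03 CPM in controls. These shares count reads and not molecules, since the 3 transcripts differ in length.

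The NR4A genes all stood higher with FK866, and 2 of the 3 passed the test. Nr4a1 (ENSMUSG00000023034, chromosome 15, 101254269 to 101274795, plus strand) encodes NUR77, a reporter of antigen receptor signalling in T cells. It had 196.5 and 128.4 CPM in the FK866 libraries, against 78.0 and 43.5 CPM in the controls. In each group replicate 2 was the lower library, and the lower FK866 library was still above the higher control. The means were 162.4 ± 48.1 CPM with FK866 and 60.7 ± 24.4 CPM in controls (SD, n = 2 each), a log2 fold change of 1.42 ± 0.28 (SE) with an edgeR adjusted p of 0.0147, or 2.67-fold with a 95% interval of 1.71 to 4.18. The call held in all 13 alternatives, and the log2 fold change lay between 0.98 without FK866 replicate 1 and 1.80 without control replicate 1.

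Nr4a2 (ENSMUSG00000026826, chromosome 2, 57106830 to 57124003, minus strand), which encodes NURR1 and is best known from dopamine neurons, had 3.78 and 5.15 CPM with FK866 and 1.73 and 1.63 CPM in controls. These values come from 102 and 175 counts with FK866 and 63 and 53 counts in controls, and the groups did not overlap. The log2 fold change of 1.41 ± 0.38 (SE) was as large as that of Nr4a1 but passed narrowly (edgeR adjusted p = 0.0426; 2.66-fold, 95% interval 1.46 to 4.83). Over the 12 alternatives that could test it, the log2 fold change stayed between 1.19 and 1.52 and the adjusted p lay between 0.00428 and 0.175. The call was lost without FK866 replicate 2 (0.175), without control replicate 1 (0.0668), without control replicate 2 (0.0503) and with no filter on low counts (0.0743).

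Nr4a3 (ENSMUSG00000028341, chromosome 4, 48045153 to 48086447, plus strand), which encodes NOR1, had 3.26 and 3.44 CPM with FK866 and 2.34 and 1.44 CPM in controls. The groups did not overlap, but the log2 fold change of 0.82 ± 0.42 (SE) did not pass (edgeR adjusted p = 0.240), and its 95% interval was 0.92-fold to 3.41-fold. Nr4a1 held between 93.4% and 96.5% of the summed NR4A reads in every library. The sum of the 3 genes was 203.5 and 137.0 CPM with FK866 against 82.1 and 46.5 CPM in controls.

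Promoters of NR4A genes are known for short elements through which cAMP and calcium signals act, and they are shown here because all 3 genes stood higher with FK866. RefSeq windows on GRCm38.p6 were at hand for 6 of the 9 genes, all but Egr1, Egr3 and Ier2. Each window covers the 250 bases before an annotated start. The 2 NR4A genes that rose are given with Ier5, which did not pass the test, each 5′ to 3′ on the strand of its gene. Nr4a1 lies at chr15:101266596-101266845 (plus strand, inside the span of the gene but in no annotated exon), Nr4a2 at chr2:57124004-57124253 (minus strand) and Ier5 at chr1:155099637-155099886 (minus strand). Capitals mark every match to TGACG, the core of the cAMP response element, or CGTCA on the other strand, and to the EGR site CGCCCCCGC.
Nr4a1: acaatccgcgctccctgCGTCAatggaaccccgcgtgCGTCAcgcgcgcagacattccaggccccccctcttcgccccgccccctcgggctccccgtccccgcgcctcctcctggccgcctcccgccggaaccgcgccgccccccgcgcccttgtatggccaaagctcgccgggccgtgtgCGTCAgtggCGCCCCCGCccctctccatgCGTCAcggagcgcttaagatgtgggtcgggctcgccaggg
Nr4a2: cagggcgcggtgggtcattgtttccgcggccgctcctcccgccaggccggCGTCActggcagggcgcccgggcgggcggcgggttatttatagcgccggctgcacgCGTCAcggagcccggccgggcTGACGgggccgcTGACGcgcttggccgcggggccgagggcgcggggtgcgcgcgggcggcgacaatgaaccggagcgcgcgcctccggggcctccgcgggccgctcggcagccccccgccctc
Ier5: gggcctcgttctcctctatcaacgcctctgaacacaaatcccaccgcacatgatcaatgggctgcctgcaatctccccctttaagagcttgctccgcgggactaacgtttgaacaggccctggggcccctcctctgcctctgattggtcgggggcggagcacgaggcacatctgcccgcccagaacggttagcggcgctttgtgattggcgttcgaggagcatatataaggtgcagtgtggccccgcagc
Nr4a1, Nr4a2 and Nr4a3 each held 4 matches to this core, counted on both strands. In the Nr4a3 window 152 of the 250 bases lie in annotated exons of that gene, against 0 for Nr4a1 and Nr4a2. Egr2, which was not called, held 2 matches in each of its 3 overlapping windows and 0 in its other 2. Ier3 and Ier5 held 0. Of 32851 promoter windows of the same length, 17.8% held at least 1 match and 0.137% held at least 4. The cut of 4 equals the count in the NR4A windows, and the 32851 windows were not matched to them in G and C content. The share of 0.137% is therefore a description and not a test, and a part of these matches in the rise was not tested. The core contains a CpG, and the windows differ in composition, with 74.4% G and C in Nr4a1, 80.0% in Nr4a2, 63.6% in Nr4a3 and 60.0% in Ier5. The full element TGACGTCA, found in 1.55% of all windows, was absent from the windows of all 6 genes, as were the NR4A site AAAGGTCA (1.34%), the AP-1 site TGANTCA (6.75%) and the FOXO site TGTTTAC (3.17%). The EGR site, searched as GCGGGGGCG or GCGTGGGCG and found in 3.06% of all windows, was present once in Nr4a1. A CArG box, the element bound by serum response factor and found in 1.47% of windows, was present in 4 of the 5 windows of Egr2, of which 3 overlap and hold the same box, and in none of the other 5 genes. A match in these windows is a sequence and not a measured site of binding.

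Of the IER genes, none of the 3 passed the test (edgeR, DESeq2 or limma-voom, each with treatment as the only term). At an unadjusted edgeR p under 0.05, 1 passed, as did 5370 of all 19194 genes tested. Ier2 (ENSMUSG00000053560, chromosome 8, 84661331 to 84662852, minus strand), a nuclear protein induced by growth factors, had 70.8 and 64.9 CPM in the FK866 libraries, against 113.9 and 76.9 CPM in the controls. Both FK866 libraries were below both controls, with control replicate 1 far above the other three. The log2 fold change was -0.49 ± 0.19 (SE, edgeR adjusted p = 0.134), or 0.71-fold with an unadjusted 95% interval of 0.52 to 0.96. Without control replicate 2, Ier2 was called lower (-0.75, adjusted p = 0.000207), and with the trend of each library on transcript length and GC content removed it was at -0.12.

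Ier5 (ENSMUSG00000056708, chromosome 1, 155096361 to 155099636, minus strand), which binds the phosphatase PP2A and promotes HSF1 activity, had the most precise estimate of the 9 genes (SE 0.14). It had 129.4 and 113.1 CPM with FK866 and 144.9 and 134.0 CPM in controls. The FK866 values were below the controls by little (log2 fold change -0.20 ± 0.14, SE, edgeR adjusted p = 0.388), with a 95% interval of 0.70-fold to 1.08-fold. Its upper bound lies below the lower bounds of Egr1 (2.79-fold) and Nr4a1 (1.71-fold).

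Ier3 (ENSMUSG00000003541, chromosome 17, 35821684 to 35822923, plus strand), also known as IEX-1, differed more between libraries of a group than between groups. It had 14.5 and 4.18 CPM with FK866, the highest and the lowest of the 4 values, against 10.7 and 7.27 CPM in controls. The log2 fold change was 0.05 ± 0.50 (SE, edgeR adjusted p = 0.971; 95% interval 0.47-fold to 2.27-fold). Its sign was not stable, with -1.21 (adjusted p = 0.0460) without FK866 replicate 1, -0.21 (adjusted p = 0.758) without control replicate 2 and 0.71 (adjusted p = 0.241) without FK866 replicate 2.

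**Figure D2:**
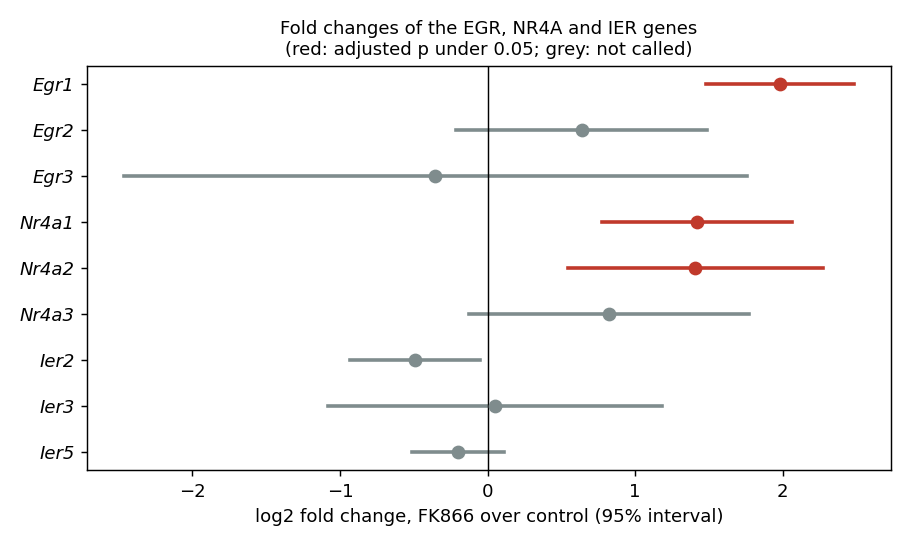
Log2 fold change of each gene, FK866 over control (horizontal axis), with its 95% interval from the quasi-likelihood fit; red marks an adjusted p under 0.05. The intervals of Egr1, Nr4a1 and Nr4a2 lie above 0, that of Ier2 lies just below 0 but does not pass after adjustment, and the other 5 include 0.

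Ratios of counts within a library do not depend on scaling. Those given here have genes chosen for their rise on top, so they restate the fold changes and support nothing further. The ratio of Egr1 to Ier2 counts was 0.823 and 0.612 in the FK866 libraries, against 0.113 and 0.156 in the controls. The ratio of Nr4a1 to Ier2 counts was 2.78 and 1.98 with FK866 and 0.684 and 0.565 in controls, and that of Nr4a1 to Ier5 counts was 1.52 and 1.14 with FK866 and 0.538 and 0.324 in controls. Nr4a1 reads thus exceeded those of Ier2 and of Ier5 in both FK866 libraries and were fewer in both controls.

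Per kilobase of merged exons, the 9 genes spanned a wide range of levels and changed order with FK866. In FK866 libraries the order of mean CPM per kb was Nr4a1 (46.3), Ier2 (44.6), Ier5 (37.0), Egr1 (10.9), Ier3 (8.27), Nr4a2 (1.10), Egr2 (1.03), Nr4a3 (0.56) and Egr3 (0.094). The ranges of Nr4a1 and Ier2, of Nr4a1 and Ier5, of Egr1 and Ier3, and of Nr4a2 and Egr2 overlapped. Egr1 was nonetheless above Ier3 within each FK866 library, with 12.98 against 12.85 CPM per kb in replicate 1 and 8.87 against 3.69 in replicate 2. Nr4a1 was above Ier2 in FK866 replicate 1 (55.98 against 46.48) but below it in replicate 2 (36.59 against 42.66). That order depends on the length used. Per kilobase of the longest transcript, Nr4a1 stood at 76.95 and 50.29 in FK866 replicates 1 and 2, above Ier2 (46.48 and 42.66) and Ier5 (39.49 and 34.52) without overlap. The order of the means was the same with either length. Nr4a2 was below Egr2 in FK866 replicate 1 (0.932 against 0.982) and above it in replicate 2 (1.27 against 1.07). In controls the order was Ier2 (62.7), Ier5 (42.6), Nr4a1 (17.3), Ier3 (7.96), Egr1 (2.76), Egr2 (0.66), Nr4a2 (0.41), Nr4a3 (0.32) and Egr3 (0.12), and no neighbours overlapped, although Nr4a2 and Nr4a3 nearly did. Ier2 and Ier5 were thus among the 3 highest of the 9 in both groups. In the annotation used here (GENCODE M21), no exon base of any of the 9 genes is shared with another gene. The annotation behind the deposited counts was not given, so whether overlapping reads affected them is not known.

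**Figure D3:**
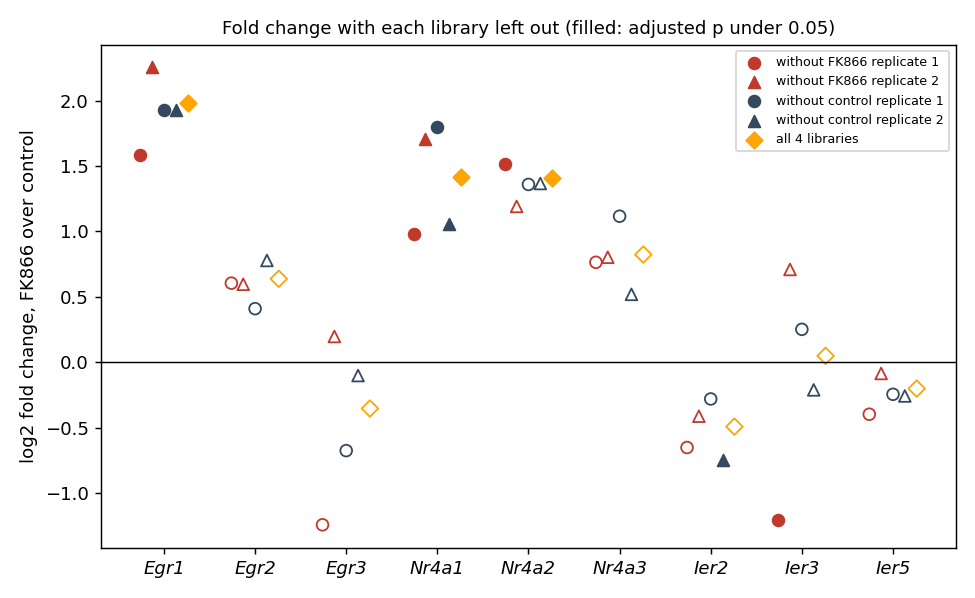
Log2 fold change of each gene, FK866 over control (vertical axis), with all 4 libraries (diamonds) and with each library left out in turn; filled symbols have an adjusted p under 0.05. Egr1 and Nr4a1 stay called with any library left out, Nr4a2 keeps its size but stays called only without FK866 replicate 1, and Ier3 and Egr3 lie on both sides of 0.

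A list of 47 other immediate early genes moved in both directions. Of the 45 that could be tested, 16 rose and 3 fell, with a median log2 fold change of 0.22, against 5.31% of all genes called higher and 7.89% called lower. These shares depend on the filter. With the stricter one (mean log2 CPM of at least 2), 34.6% of 9697 genes were called, 1747 of them higher, and 19 of the list rose and 3 fell. Ptgs2, which encodes the prostaglandin synthase COX-2, rose most by adjusted p, with 56.1 and 43.4 CPM in FK866 libraries and 9.22 and 7.48 CPM in controls (log2 2.57). Fosl2, which encodes the AP-1 factor FRA2, had 45.0 and 37.5 CPM with FK866 and 9.96 and 9.51 CPM in controls (log2 2.08). Ppp1r15a, a subunit of the eIF2α phosphatase, rose by 1.36 on the log2 scale. The 3 genes that fell were Gadd45g, a growth arrest and stress sensor, with 28.3 and 22.7 CPM with FK866 and 98.0 and 79.4 CPM in controls (log2 -1.80), the AP-1 factor gene Jund (-1.26) and the survival gene Mcl1 (-0.77). Fos and Jun, named here after their values were seen, stood at log2 0.35 (edgeR adjusted p = 0.378) and 0.22 (adjusted p = 0.804), with 13.9 and 18.9 CPM of Fos in FK866 libraries and 12.3 and 13.6 CPM in controls. The number that fell was 8 without FK866 replicate 1 and 9 without control replicate 2.

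**Figure D4:**
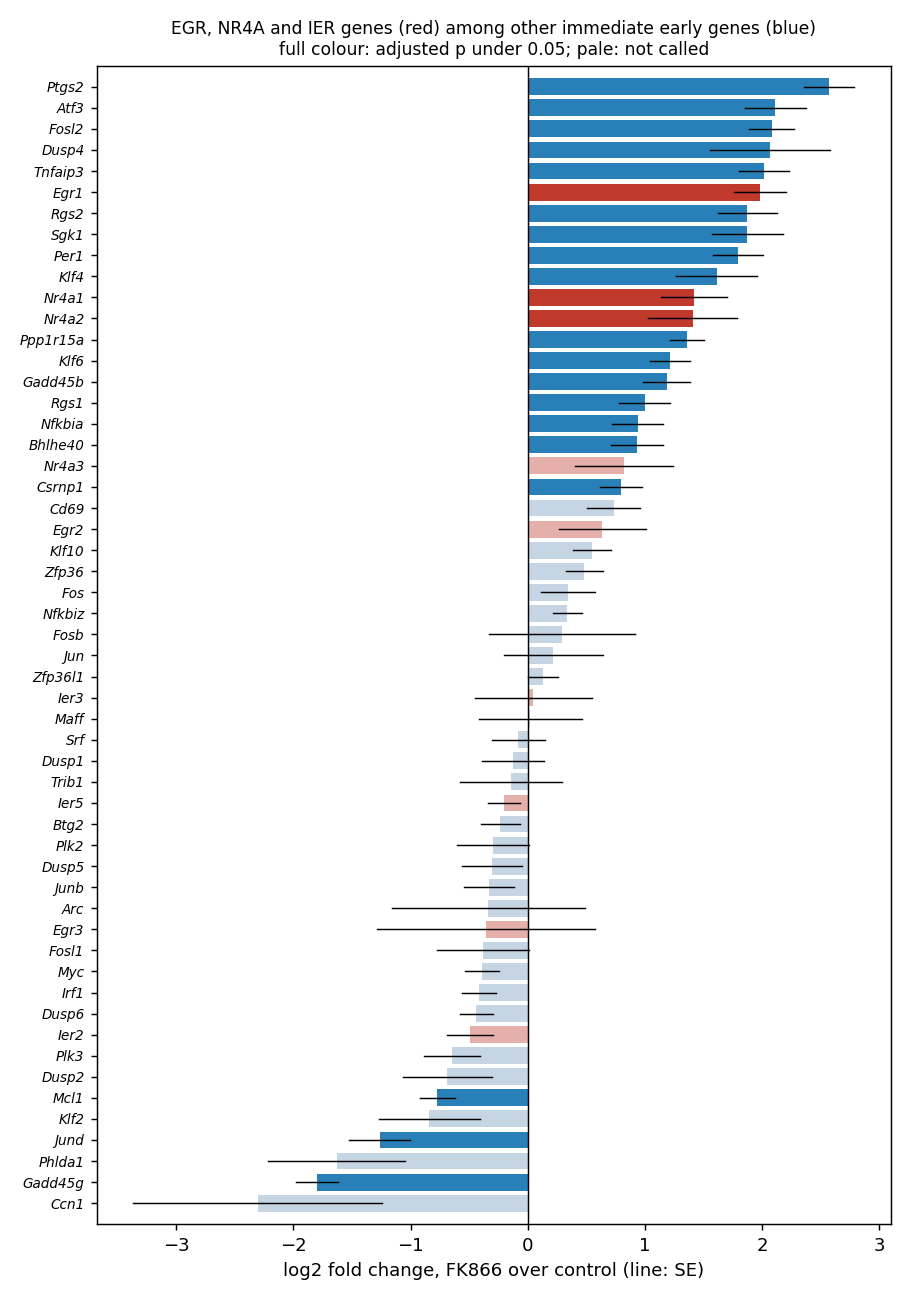
Log2 fold change, FK866 over control (horizontal axis), of the 9 genes (red) and 45 other immediate early genes (blue), ordered by size, with lines for the SE and full colour for an adjusted p under 0.05. Egr1, Nr4a1 and Nr4a2 sit among 16 other genes that rose, while Ier3, Ier5, Egr3 and Ier2 sit in the lower part with genes such as Srf and Junb.

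Signalling genes known to act on these genes were read in the same way, against 5.31% of all genes tested called higher and 7.89% called lower. In a list of 20 genes of the ERK to SRF route, the route best known for Egr1, 2 were called, 1 in each direction, and the median log2 fold change was -0.19. Across the alternatives 0 to 4 of them rose and 0 to 3 fell. Srf itself stood at a log2 fold change of -0.08 (edgeR adjusted p = 0.874). In a list of 29 genes of cAMP and CREB, calcium and NFAT, and MEF2 signalling, 10 rose and 0 fell. Those routes are the best known for Nr4a1, and the median log2 fold change was 0.19. This list mixes genes that promote these signals with genes that limit them, such as phosphodiesterases. Its counts therefore give no direction for signalling. The shares of all genes called depend on the filter. With the stricter one (mean log2 CPM of at least 2), 1747 of 9697 genes were called higher. In that fit 11 of the cAMP, calcium and MEF2 list rose and 0 fell, and 4 of the ERK to SRF list rose and 1 fell. Crem, which encodes a CREB-family factor, had 73.6 and 80.3 CPM in FK866 libraries, against 23.7 and 18.8 CPM in controls (log2 1.85 ± 0.17, SE, edgeR adjusted p = 0.00108). Camk4, a calcium and calmodulin dependent kinase that phosphorylates CREB, rose by 1.01, the cAMP phosphodiesterase gene Pde4d by 1.83 and Creb1 by 0.91 on the log2 scale. After removal of length and GC trends 2 genes of this list were called lower. Some were also called lower without FK866 replicate 1, without control replicate 1 or without control replicate 2.

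The lists that follow stand beside 5.31% of all genes tested called higher and 7.89% called lower. These shares depend on the filter. With the stricter one (mean log2 CPM of at least 2), 34.6% of 9697 genes were called, 1747 of them higher. In that fit 4 of the partner list, 4 of the downstream list and 7 of the mRNA decay list rose. Of the downstream list 3 fell in it. Of 13 genes for partner proteins, 3 rose: the nuclear receptor corepressor gene Ncor1 (log2 0.59), the histone demethylase gene Kdm1a (0.59) and Ppp2r2a (0.59), which encodes a regulatory subunit of PP2A. These 3 calls were lost without FK866 replicate 1 and with no filter on low counts, where 0 of the list passed. Nab2, a corepressor that EGR factors induce and that in turn holds them back, had 8.05 and 4.94 CPM with FK866 and 4.90 and 2.64 CPM in controls, with the lower FK866 value barely above the higher control (log2 0.78 ± 0.40, SE, edgeR adjusted p = 0.246). Of 15 genes reported downstream of EGR or NR4A factors in T cells, 14 could be tested, and 3 rose and 2 fell. The rises were in the costimulatory receptor gene Tnfrsf9 (log2 2.03), with 230.8 and 189.0 CPM in FK866 libraries and 65.1 and 37.5 CPM in controls, in Tox (1.13) and in the ubiquitin ligase gene Cblb (0.92). The falls were in the cytokine signalling inhibitors Socs1 (-1.87) and Socs3 (-1.10). Without control replicate 1, 5 of this list rose. Of 20 factors of mRNA decay, 5 rose, among them Zfp36l2, which binds AU-rich elements of the kind found in immediate early transcripts, with 103.5 and 94.2 CPM with FK866 and 32.2 and 26.7 CPM in controls (log2 1.75), Rc3h2 (0.68), Pan3 (0.61) and Dcp1a (0.56). That number was 1 with no filter, and it changed whichever library was left out. Some of the list were called lower without FK866 replicate 1 and without either control library. With the replicate block 7 rose and 2 fell, and after removal of length and GC trends 6 rose and 1 fell.

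The genes whose pattern over the 4 libraries lay closest to each of the 3 rising members were found by the Euclidean distance between centred log2 CPM values, among 8337 other genes (8338 for Nr4a2) whose log2 CPM averaged 3 or more. For Egr1 they were Fosl2 (distance 0.236), the death receptor gene Fas (0.255) and the cholesterol exporter gene Abcg1 (0.266). For Nr4a1 they were Tnfrsf11a, which encodes the receptor RANK (0.210), Fam129a (0.233) and the syntaxin gene Stx11 (0.252). For Nr4a2 they were the RNA-binding protein gene Rbm15 (0.145), the ubiquitin ligase gene Rnf125 (0.155) and Nt5e, which encodes the ectonucleotidase CD73 (0.212). These distances rest on 4 libraries in 2 groups. The 3 members were picked for their rise, so genes close to them rose as well, with log2 fold changes of 1.21 to 2.08. The distances restate that group difference, and shared regulation was not tested.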

How the data were processed

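RNA was taken with TRIzol and full-length cDNA made with the SMART-Seq HT kit, followed by Nextera XT paired-end libraries, per the labels' protocols; this chemistry does not mark strand. The authors deposited raw read counts per Ensembl gene as whole numbers, 1 column per library. Per the submitters' processing notes, cutadapt 1.9, HISAT2 2.2.1 and build mm10 were used; the read counter, its annotation and its handling of multi-mapped reads were not given in the sources used here. Group and replicate came from the sample titles. Symbols, positions and lengths were read from GENCODE M21, also on that build (55227 of 55487 IDs matched; the others held at most 0.0494% of a library and stayed in).

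From the counts, edgeR 4.0.16 (R 4.3.3) gave TMM-scaled CPM and a two-sided quasi-likelihood F test with treatment as its only term, after filterByExpr (minimum count 10, minimum total 15), with Benjamini-Hochberg adjustment over all 19194 genes and a threshold of 0.05. Dividing a log2 fold change by the square root of F gave its SE, and 95% intervals are not adjusted for the number of genes. The alternatives were other scalings, DESeq2 1.42.0, limma-voom (limma 3.58.1), other filters, each library left out, a replicate block, and removal of length and GC trends. The procedure was tested on simulated counts.

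The 9 genes and all lists were chosen with earlier results of these data known, so counts over them are descriptions. Named genes were all 9 members, up to 4 called genes with the smallest adjusted p from each related list, and the 3 genes nearest to each called member; Jund, Mcl1, Tox, Srf, Fos, Jun, Junb, Nab2, Kit, Cd68, Cpa3, Rora, Il13, Icos, Il23r and mt-Co1 were named after their values were seen. The called genes of the ERK to SRF list are not reported here by name.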

Additional observations from a re-analysis of the deposited data

How the results depend on the processing

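Of 113 refits of member fold changes, 102 kept their direction and their side of the threshold. The number of members called higher was 2 or 3 in each alternative run. The number called lower was 1 (Ier2) with the replicate block, and 0 to 1 as each library was left out. Ier3 changed sign with limma-voom (-0.26), with the replicate block (-0.15) and as libraries were left out (-1.21 to 0.71), and Egr3 as libraries were left out (-1.24 to 0.20). The causes were not tested.

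Among the other immediate early genes, 13 to 19 rose and 2 to 9 fell as each library was left out, 5 fell with no filter and 10 with the replicate block. In the cAMP, calcium and MEF2 list, 7 to 11 rose and 0 to 3 fell as each library was left out, 4 fell with the replicate block and 2 once length and GC trends were taken out. Over all genes, 661 to 1457 rose and 828 to 2462 fell as each library was left out. The replicate block gave 2197 higher and 3059 lower, and removal of the length and GC trend 1643 higher. The stricter filter gave 1747 higher among the 9697 genes it kept. In that blocked fit Ier2 had a log2 fold change of -0.47 (adjusted p = 0.00506), and the calls of Egr1, Nr4a1 and Nr4a2 did not change. The replicate numbers are shared by only 2 pairs, and no label says what they share. Deviations from the group mean correlated at 0.234 across genes between same-numbered libraries, and the second principal component (32% of the variance) separated the numbers in both groups. With Egr3 at 8 to 20 counts a library, depth limits what can be said of it.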
